A study of Mus musculus with 6 samples.

Results

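Long noncoding RNAs expressed in irradiated LSKs were compared between Tespa1+/+ and Tespa1-/- mice. They were taken as the rows of the deposited gene table whose gene type is lincRNA, lncRNA, antisense or processed_transcript and whose count is 50 or more in each of the 6 libraries, without H19, Meg3, Rian and Mirg. The members were thus chosen by their raw count in every library and by annotation, not by a difference between genotypes. Of the 55487 rows of the table, 9399 carried one of these gene types and 134 reached the floor: 53 lincRNA, 41 antisense and 40 processed_transcript rows. No row carried the type lncRNA. The 4 imprinted genes named for exclusion had between 0 and 4 counts in every library, so none of them would have reached the floor.

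LSKs are bone marrow cells that lack lineage markers and carry Sca-1 and c-Kit, and they include the hematopoietic stem and progenitor cells. Tespa1 encodes a protein of T cell receptor and calcium signalling, and the study asked how its loss changes these cells under stress. Cells were taken from irradiated Tespa1+/+ mice (wild-type, labelled as littermates) and Tespa1-/- mice (knockout in all cells), with 3 libraries in each group, in the second week after a sublethal dose to the whole body. All 6 libraries came from irradiated mice, so no unirradiated level was analysed here, and whether a library stood for 1 mouse or for a pool was not stated. If the libraries were not separate animals, the p-values measure only the spread between these libraries.

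Long noncoding RNAs are transcripts that are not translated into long proteins. Some act as RNA molecules in the nucleus, where they hold nuclear bodies together or silence genes on the chromosome they come from. Others matter mainly as carriers, because small nucleolar RNAs (snoRNAs, which guide modification of ribosomal RNA) or microRNAs are cut out of their introns or exons, and still others lie beside or across a protein-coding gene and share its promoter region. Several microRNA hosts are known mainly from blood cells. Poly-A RNA was sequenced, so the values below are those of the long host transcripts and not of the snoRNAs or mature microRNAs made from them.

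The floor was set on raw counts and therefore bound unequally. Total counts ranged from 12856630 to 30576981, so that 50 counts were 1.64 CPM (counts scaled to a common library total) in the deepest library, Tespa1+/+ replicate 2, and 3.89 CPM in the shallowest, Tespa1-/- replicate 3. The lowest of the 6 counts lay in that shallowest library for 81 of the 134 RNAs. A transcript that is low in Tespa1-/- cells was thus more easily left out than one that is low in Tespa1+/+ cells. Just inside the floor were Gm12454, whose lowest count was 50, and C130013H08Rik and Trmt61b at 51. Just outside it, at 49, were 4933421O10Rik, Gm36445, Gm50240 and Ino80dos. Since the floor selected on level, levels are described without a test below, and differences between genotypes are taken from a fit on the whole table.

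The targeted gene was lower where the labels name the knockout, with 533 to 1033 counts of Tespa1 in the Tespa1+/+ libraries and 176 to 261 in the Tespa1-/- libraries. Scaled for depth this was 34.3 ± 1.62 against 14.6 ± 0.634 CPM (SD, n = 3 each), a 2.35-fold fall. Reads on the Tespa1 row thus remained in the Tespa1-/- libraries. The LSK markers were present, with all 12 listed genes detected, but their summed level was 1524 to 1568 CPM in Tespa1+/+ and 1043 to 1063 CPM in Tespa1-/- libraries, and 9 of the 12 were called lower in Tespa1-/- libraries (adjusted p under 0.05 and fold over 1.5, edgeR) while Spi1 was called higher. Neutrophil markers summed to 9455 to 10154 CPM against 15378 to 15825 CPM, with 8 of 10 called higher in Tespa1-/- libraries and Ly6g at the floor in the Tespa1+/+ group. Monocyte markers summed to 424 to 464 against 564 to 615 CPM, but of the 4 listed Ly6c2 was called higher (log2 fold change 0.88) and Csf1r lower (-0.65). Erythroid markers summed to 23.1 to 23.6 against 42.3 to 45.4 CPM, with 2 of 5 called higher and Klf1 called lower (-0.98). B cell markers (47.7 to 51.1 against 34.8 to 38.6 CPM, Ms4a1 at the floor in both groups) and T cell markers (3.17 to 3.35 against 1.37 to 1.58 CPM, Cd3e at the floor in Tespa1-/-) were low in both. These marker levels moved with genotype beside every result given here, and their part in the results was not tested. In bulk RNA, fewer cells of a type and less RNA per cell cannot be told apart.

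The 134 RNAs together took less than 1% of each library. Their share of all counts was 0.722%, 0.71% and 0.731% in Tespa1+/+ replicates 1 to 3 and 0.648%, 0.63% and 0.638% in Tespa1-/- replicates 1 to 3. The groups did not overlap, with means of 0.721 ± 0.0102% and 0.639 ± 0.00904% (SD, n = 3 each). An exact two-sided permutation test gave p = 0.1, which is the smallest value that 3 libraries against 3 allow. Abundance was concentrated in a few transcripts: Malat1 alone took 13.2% to 17.5% of the counts on these RNAs, and Malat1, Gm47283, AI506816, Neat1 and Erdr1 together took 47.1% to 52.8%. Without Malat1 and Neat1 the shares were 0.532 ± 0.00275% and 0.519 ± 0.00955%, and the exact p was 0.2. The lower share in Tespa1-/- LSKs thus lay largely in 2 nuclear RNAs.

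**Figure D1:**
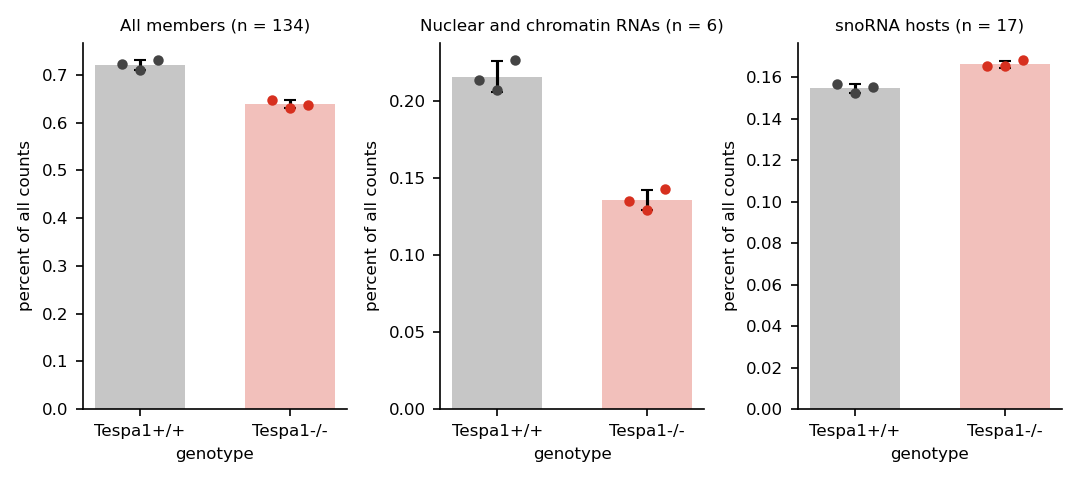
Share of all counts in each library that lay on the 134 long noncoding RNAs, on the 6 nuclear and chromatin RNAs among them, and on the 17 snoRNA hosts among them, in percent. Bars are means of 3 libraries, error bars are SD and points are libraries. The nuclear RNAs took 0.216% in Tespa1+/+ and 0.136% in Tespa1-/- libraries, while the snoRNA hosts took 0.155% and 0.166%.

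Per length, the 10 most abundant RNAs by mean FPKM over the 6 libraries (fragments scaled by gene length and library total) were Gm10076 at 144, 2410006H16Rik at 140, AI506816 at 134, Malat1 at 120, Gm47283 and Erdr1 at 113 each, 2900097C17Rik at 60.2, Mir142hg at 43.3, AU020206 at 42.2 and Snhg8 at 30.5. The length behind the deposited FPKM (the implied length) differs from the union exon length (merged annotated exons) used further on. Over the 134 RNAs it was 0.986 to 11.6 times that length, with a median of 1.17. For Gm47283 it is 7506 against 1124 bases and for Erdr1 2877 against 759 bases, so the ranks depend on the length used. Several of the 10 rows are uncertain in other ways. Gm47283 and Erdr1 are typed as protein coding in the GENCODE M21 annotation, Gm47283 lies on the Y chromosome and Erdr1 at the end of the X chromosome in repeated sequence, and the start windows of AI506816 and 2700038G22Rik, shown further on, are nearly the same sequence. Reads of repeated sequence can be split between rows. Gm43305 and Gm42031, named further on, have identical windows. For these pairs only sequence around the start was compared, so whether their reads were shared was not tested. 2900097C17Rik is Norad, a cytoplasmic RNA that binds PUMILIO proteins. It stood at 303, 298 and 293 CPM in Tespa1+/+ and 347, 325 and 334 CPM in Tespa1-/- libraries, a log2 fold change of 0.17 ± 0.03 (SE, adjusted p = 0.00308, edgeR) and, corrected for transcript length as described further on, of 0.24.

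Genes were called when the adjusted p was under 0.05 and the fold over 1.5 in edgeR's quasi-likelihood test over 15332 genes. By this rule 13 of the 134 RNAs were higher in Tespa1-/- LSKs (9.7%) and 16 were lower (11.9%), against 14.0% and 19.2% of all genes tested. Among the 9730 protein-coding genes that also had 50 or more counts in every library, 11.0% were higher and 15.2% lower. At the adjusted p alone, 34 RNAs were higher (25.4%) and 38 lower (28.4%), against 31.5% and 31.8% of all genes tested, and together these were 53.7% against 63.3%. In 80 RNAs the 3 libraries of one genotype lay entirely above those of the other (59.7%, against 69.1% of all genes tested). Without correction for length, the shares of long noncoding RNAs that differed were therefore no larger than in the table as a whole. Their log2 fold changes ran from -1.53 to 1.01 with a median of -0.05, beside a median of 0.00 over all genes tested. Scaling by total counts moved the median of all genes to -0.10, and the split among the RNAs to 8 higher and 25 lower. By type, 5 lincRNA rows were higher and 8 lower, 0 antisense rows were higher and 3 lower, and 8 processed_transcript rows were higher and 5 lower.

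**Figure D2:**
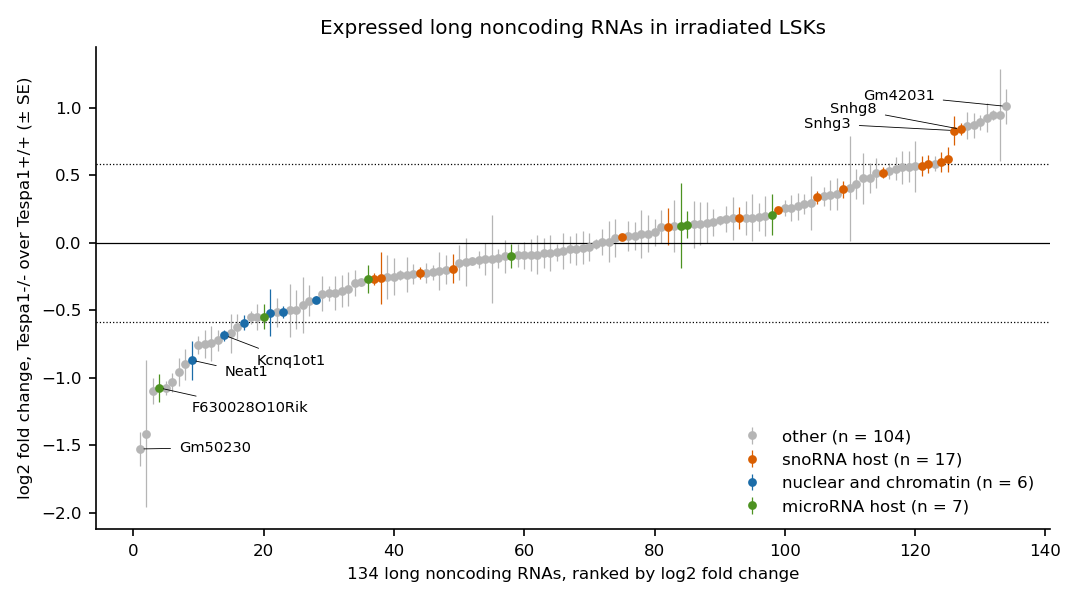
Log2 fold change (Tespa1-/- over Tespa1+/+) of the 134 long noncoding RNAs in rank order, with SE bars from the edgeR fit. Dotted lines mark a fold of 1.5 in either direction. The nuclear and chromatin RNAs (Ftx, which also hosts microRNAs, is shown with them) all lie below 0, and 13 of the 17 snoRNA hosts lie above it, without correction for length.

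Fold change followed transcript length in these libraries, which bears on every group below. Union exon length of the RNAs (all annotated exons merged) ran from 269 to 93092 bases with a median of 2785.5. The rank correlation of log2 fold change with length was -0.42 over the 134 RNAs and -0.58 over 9726 protein-coding genes of the same count floor, where genes share the 6 libraries and are not independent. When the RNAs were ranked by length and cut into 3 classes, the median log2 fold change ran from 0.15 among the 45 shortest over 0.01 to -0.26 among the 45 longest. With a length correction (a loess fit of each library's deviation against union exon length, used as an offset in edgeR), 3 RNAs were higher (2.24%) and 25 lower (18.7%), against 6.44% and 17% of all genes tested, and the median became -0.20. Among the protein-coding genes of the same floor 6.98% were then higher and 8.77% lower. The rank correlation with length over the RNAs was then 0.24, and over the protein-coding genes it was near 0. Of the 13 RNAs called higher, 3 were still called higher with the correction, namely Gm42031, AI662270 and 2810408I11Rik, and of the 16 called lower, 11 were still called lower. Values below are without the correction unless they are named as corrected.

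**Figure D3:**
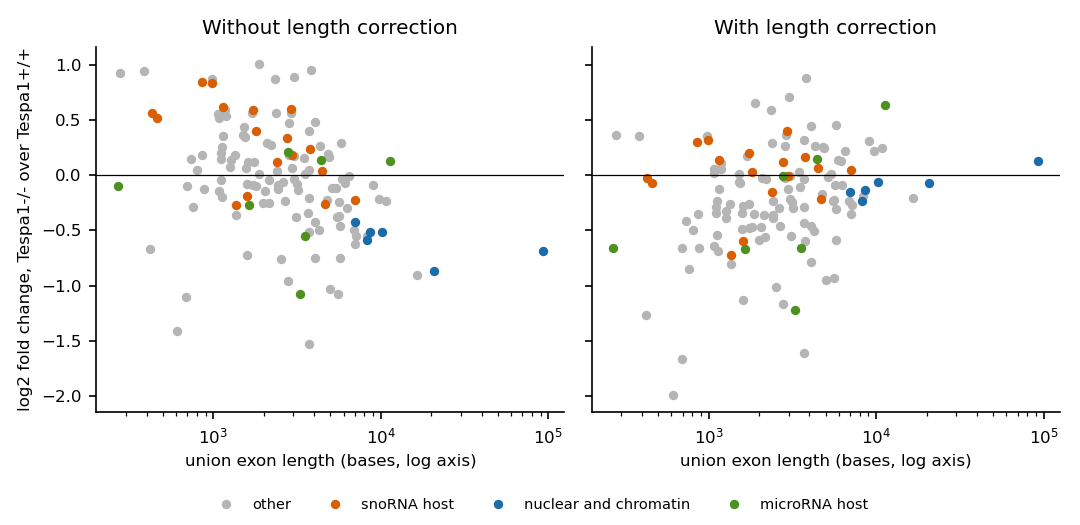
Log2 fold change (Tespa1-/- over Tespa1+/+) of the 134 long noncoding RNAs against union exon length in bases (log axis), without (left) and with (right) the length correction. Points are RNAs, coloured as snoRNA hosts, nuclear and chromatin RNAs, microRNA hosts or others. The fall with length on the left, a rank correlation of -0.42, is absent on the right, where it is 0.24.

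The nuclear and chromatin RNAs were lower in Tespa1-/- LSKs before the length correction. Of the 20 genes on this list 8 reached the floor, of which Tug1 and Peg13 were left out by their gene type. All 6 others were lower at the adjusted p, against 31.8% of all genes tested. Of these 6, 3 were called (50%, against 19.2% of all genes tested), and the median log2 fold change was -0.55. Neat1, an RNA of paraspeckles, stood at 585, 585 and 764 CPM in Tespa1+/+ and at 326, 312 and 421 CPM in Tespa1-/- libraries. Counts are per gene, so its 4 annotated transcripts were not told apart. Replicate 3 was the highest library in both genotypes, but the groups did not overlap. The fall was 1.83-fold (log2 fold change -0.87 ± 0.14 SE, adjusted p = 0.00146, edgeR). Malat1, a long-lived RNA of nuclear speckles and the neighbour of Neat1 on chromosome 19, had 1216, 1162 and 1168 CPM against 901, 861 and 887 CPM. Its libraries were close together within each genotype, and it was 1.34-fold lower (log2 fold change -0.42 ± 0.03, adjusted p = 1.66e-05, edgeR).

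Kcnq1ot1 is the paternally expressed antisense RNA that silences the Kcnq1 imprinted domain (GRCm38 chromosome 7, 143203458 to 143296549, minus strand). It measured 124, 119 and 120 CPM in Tespa1+/+ and 77.4, 72.9 and 75.8 CPM in Tespa1-/- libraries, a 1.61-fold fall (log2 fold change -0.68 ± 0.04, adjusted p = 8.61e-06, edgeR). Kcnq1 on the other strand was not tested, at 0.11 CPM in Tespa1+/+ and 0 CPM in Tespa1-/- libraries. Firre, an X-linked RNA that organises contacts between chromosomes, had 67.1, 69.3 and 75.6 CPM against 47.7, 48.0 and 44.9 CPM (log2 fold change -0.59 ± 0.06, adjusted p = 0.000106, edgeR). The row 1810026B05Rik is Chaserr, which lies upstream of Chd2 and restrains its expression, and it had 53.4 to 54.2 CPM against 36.7 to 38.7 CPM (log2 fold change -0.51). Ftx, an X-inactivation centre RNA, was the exception in separation, with 15.2, 13.6 and 9.56 CPM against 8.68, 8.46 and 9.82 CPM, so that its groups overlapped. Its adjusted p of 0.0335 (edgeR) rose to between 0.0904 and 0.103 without Tespa1+/+ replicate 1 or 2, or Tespa1-/- replicate 1 or 2.

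With the length correction none of these 6 RNAs was called and the median log2 fold change was -0.10. At the adjusted p alone, 3 were lower and 1 was higher. Malat1 moved to -0.15 (adjusted p = 0.00253, edgeR), Firre to -0.24 (0.0124) and 1810026B05Rik to -0.13 (0.0381). Kcnq1ot1 turned to 0.13 (adjusted p = 0.0241, edgeR). Neat1 moved to -0.07 (adjusted p = 0.711, edgeR) and Ftx to -0.06 (0.793), and neither passed. All 6 have union exon lengths of 6983 bases or more. Only 88 of the genes tested reach 20000 bases and 2 reach 50000, so the correction rests on few genes at the lengths of Neat1 and Kcnq1ot1.

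**Figure D4:**
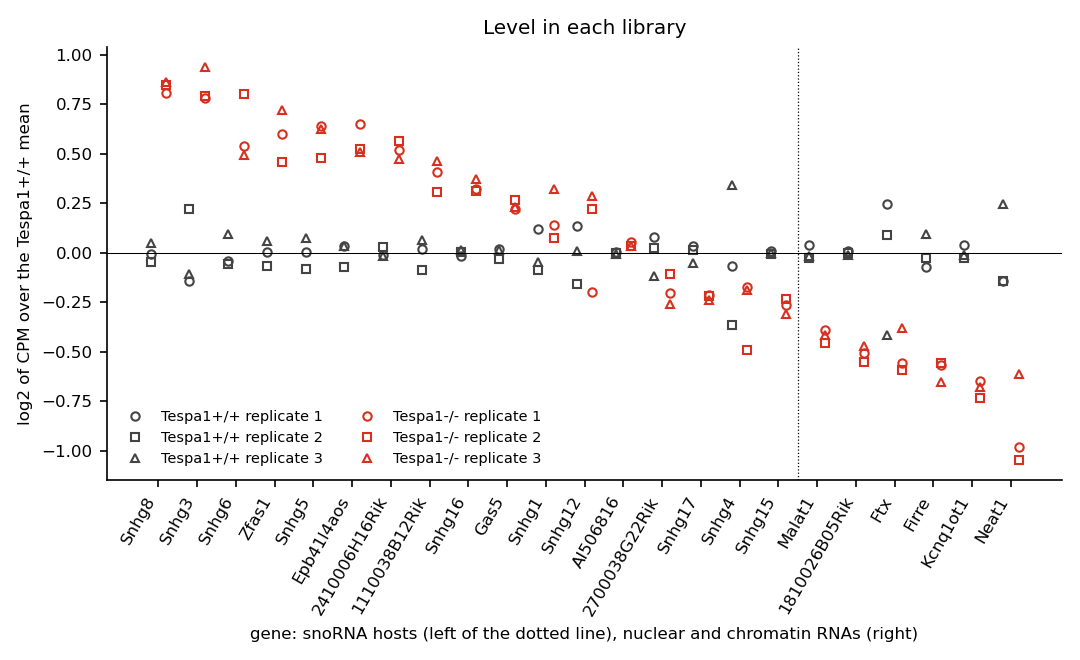
Level of the 17 snoRNA hosts and the 6 nuclear and chromatin RNAs in each library, as log2 of CPM over the mean of the 3 Tespa1+/+ libraries, without length correction. Grey symbols are Tespa1+/+ and red symbols Tespa1-/- libraries, with the same shape for the same replicate number. Snhg8 shows the widest gap between genotypes among the hosts, with 37.4 to 40.0 CPM against 67.7 to 70.3 CPM, and Ftx overlaps between genotypes.

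The snoRNA hosts moved the other way before the length correction. Genes of this kind carry snoRNAs in their introns, and their spliced transcripts often begin with a run of pyrimidines, as do the mRNAs of ribosomal proteins, and are read by ribosomes and decayed. Of the 17 hosts, 5 were called higher (29.4%) and 0 lower, against 14.0% and 19.2% of all genes tested. At the adjusted p alone 10 were higher (58.8%) and 2 lower (11.8%), against 31.5% and 31.8%. The median log2 fold change of the hosts was 0.34. Of the 45 shortest RNAs, some of them hosts, 8 were called higher and 19 were higher at the adjusted p alone. The number of hosts called higher varied with the setting: it was 2 with total counts, with glmTreat and with both limma fits, 3 without Tespa1+/+ replicate 2 and 6 without Tespa1+/+ replicate 1 or 3. The row AI506816 counts as a host only because Mir3096 inside it is typed as a snoRNA, and without it the median of the 16 others was 0.37.

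Snhg8, host of Snora24, had 38.5, 37.4 and 40.0 CPM in Tespa1+/+ and 67.7, 69.6 and 70.3 CPM in Tespa1-/- libraries. It rose 1.79-fold (log2 fold change 0.84 ± 0.05, adjusted p = 6.96e-06, edgeR). Snhg3, host of Snora73a and Snora73b, had 16.5, 21.2 and 16.9 CPM against 31.4, 31.5 and 34.9 CPM (log2 fold change 0.83 ± 0.11, adjusted p = 0.000463, edgeR). In both genes every Tespa1-/- library lay above every Tespa1+/+ library. Snhg6 had 29.4 to 32.7 CPM against 43.2 to 53.4 CPM (log2 fold change 0.62), Zfas1 had 58.7 to 64.0 CPM against 84.6 to 101 CPM (0.60) and Snhg5 had 32.0 to 35.6 CPM against 47.3 to 52.8 CPM (0.59). These 5 were the called hosts, and Snhg5 passed the fold of 1.5 only just.

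Smaller rises that passed the adjusted p but not the fold were seen in 5 further hosts. 2410006H16Rik, which carries Snord49a, Snord49b and Snord65, had 52.9, 54.5 and 52.8 CPM against 76.7, 79.2 and 74.2 CPM (log2 fold change 0.52). Epb41l4aos had a log2 fold change of 0.57, 1110038B12Rik of 0.40 and Snhg16 of 0.34. Gas5 is a growth-arrest RNA whose body holds 10 genes typed as snoRNA, among them Mir5117 and a repeated Snord80. It had 261, 252 and 260 CPM against 301, 309 and 303 CPM, a rise of 1.18-fold (log2 fold change 0.24 ± 0.03, adjusted p = 0.000254, edgeR). The groups did not overlap in any of these 5.

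Not every host was higher. Snhg15 had 47.6, 47.1 and 47.4 CPM against 39.4, 40.3 and 38.2 CPM (log2 fold change -0.27 ± 0.05, adjusted p = 0.00172, edgeR), and Snhg17 had a log2 fold change of -0.22 (adjusted p = 0.00394, edgeR). Snhg1 (0.18, adjusted p = 0.0825), Snhg12 (0.12), AI506816 (0.04), 2700038G22Rik (-0.19) and Snhg4 (-0.26) did not pass edgeR's test. Leaving out Tespa1+/+ replicate 1 or Tespa1-/- replicate 2 brought Snhg1 to an adjusted p of 0.0334 or 0.0446. With the length correction Snhg1 stood at -0.01, Snhg12 at -0.15 and Snhg17 at 0.05.

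With the length correction the median of the 17 hosts was 0.05, 0 were called higher and 2 lower, namely Snhg15 (-0.72) and 2700038G22Rik (-0.60), and 6 were higher at the adjusted p alone. Snhg8 stood at 0.30, Snhg3 at 0.32, Zfas1 at 0.40, Snhg5 at 0.20, Snhg6 at 0.13 and Gas5 at 0.16, while 2410006H16Rik stood at -0.07 and Epb41l4aos at -0.03. The median union exon length of the hosts was 1811 bases, shorter than that of the 134 RNAs. When the length was instead derived from each row's own count and FPKM, the median was 0.20, Snhg5 alone was called higher (1.16) and 2700038G22Rik alone lower (-0.59), while Snhg15 had -0.45. For Snhg5 the length so derived is 20061 bases against a union exon length of 1730 bases, so its corrected value depends on the length used.

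The sequence around the start of transcription is shown for 13 hosts, whether or not they passed the test, and for 3 nuclear RNAs, because a pyrimidine run near the start was more frequent among the hosts. The windows of Gm43305 and Gm42031, a fall and a rise taken up further on, are added because they are the same. Windows of 40 bases were read from the RefSeq promoter sequences on GRCm38.p6, 5′ to 3′ on the gene's strand, with the annotated start as base 16. Capitals mark the nearest run of 6 or more C or T that begins within 10 bases of the start. The starts were matched by symbol or synonym for 69 of the 134 RNAs and 14 of the 17 hosts. By synonym, D130058E05Rik was matched to a start of Gbx2 on the other strand. Gm12940 was matched to Sfpq, whose listed start lies upstream of the Gm12940 row. Such matches may not be the promoters of these RNAs, and the shares below include them.
Snhg8, chr3:123508312-123508351, minus strand: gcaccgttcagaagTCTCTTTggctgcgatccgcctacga
Snhg5, chr9:88522873-88522912, minus strand: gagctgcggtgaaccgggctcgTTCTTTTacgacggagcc
2410006H16Rik, chr11:62602862-62602901, plus strand: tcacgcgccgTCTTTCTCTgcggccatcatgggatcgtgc
1110038B12Rik, chr17:34952447-34952486, minus strand: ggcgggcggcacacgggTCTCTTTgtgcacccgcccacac
Snhg16, chr11:116671645-116671684, plus strand: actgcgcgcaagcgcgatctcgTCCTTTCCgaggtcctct
Gas5, second listed start, chr1:161035151-161035190, plus strand: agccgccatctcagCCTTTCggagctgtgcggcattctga
Snhg1, chr19:8723472-8723511, plus strand: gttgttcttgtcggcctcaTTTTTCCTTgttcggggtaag
AI506816, chr5:23712643-23712682, minus strand: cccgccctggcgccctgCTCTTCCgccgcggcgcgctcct
2700038G22Rik, chr5:23850582-23850621, plus strand: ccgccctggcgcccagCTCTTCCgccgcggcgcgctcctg
Snhg3, chr4:132353662-132353701, minus strand: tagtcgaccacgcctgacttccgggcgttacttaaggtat
Zfas1, chr2:167062919-167062958, plus strand: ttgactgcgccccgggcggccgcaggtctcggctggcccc
Snhg15, chr11:6528736-6528775, minus strand: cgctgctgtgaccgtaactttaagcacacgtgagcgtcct
Snhg17, second listed start, chr2:158361485-158361524, minus strand: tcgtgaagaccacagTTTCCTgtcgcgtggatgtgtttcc
Malat1, chr19:5802648-5802687, minus strand: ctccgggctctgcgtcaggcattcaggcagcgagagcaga
Kcnq1ot1, chr7:143296523-143296562, minus strand: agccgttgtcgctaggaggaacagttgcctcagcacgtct
Firre, chrX:50635297-50635336, minus strand: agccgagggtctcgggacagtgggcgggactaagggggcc
Gm43305, chr14:54297464-54297503, minus strand: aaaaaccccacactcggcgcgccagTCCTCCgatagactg
Gm42031, chr8:85131790-85131829, minus strand: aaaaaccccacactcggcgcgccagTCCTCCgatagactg

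A run of this kind stood at a listed start of 11 of the 14 matched hosts (78.6%), of 15 of the 55 other matched RNAs (27.3%) and of 0 of the 5 matched nuclear and chromatin RNAs. Among all 27025 genes with a listed start, 26.2% had one. Gas5 and Snhg17 each have another listed start, not shown, without a run. Counted per start, 12 of 17 starts of hosts (70.6%) had one, against 27.4% of starts of the other matched RNAs and 23.1% of all starts. The definition of the run was chosen after the windows had been seen, and annotated starts can be several bases off, so these shares are a description. Having the run did not separate hosts that rose from those that did not: Snhg3 and Zfas1 rose without one at their listed starts, Snhg12 and 2700038G22Rik had one without passing the test, and Snhg17 fell with one. The E-box CACGTG was searched in the 300-base promoter on both strands (it is its own reverse complement). It was found for 10 of the 69 matched RNAs (14.5%), 1 of the 14 hosts and 8.09% of all genes with a listed start. The 10 include D130058E05Rik, through the start of Gbx2.

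The microRNA hosts were lower or did not pass the test. Of the 9 hosts, 0 were called higher and 1 lower (11.1%, against 19.2% of all genes tested), 3 were lower at the adjusted p alone (33.3%, against 31.8%), and the median log2 fold change was -0.26. These shares are below or near those of all genes. The called host was F630028O10Rik, whose body holds Mir223, a microRNA known for its abundance in granulocytes and their precursors (GRCm38 chromosome X, 96239926 to 96243636, plus strand). The other host that was lower with no overlap and passed the test was Mir17hg, which carries the miR-17 to miR-92a cluster of 6 microRNAs known for promoting growth in blood progenitors. Mature forms made from both hosts are shown with the seed, bases 2 to 8, in capitals, from RefSeq on GRCm38.p6.
miR-223-3p: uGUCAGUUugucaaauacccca
miR-17-5p: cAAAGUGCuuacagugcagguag
miR-20a-5p: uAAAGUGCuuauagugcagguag
miR-18a-5p: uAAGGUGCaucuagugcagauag
miR-19a-3p: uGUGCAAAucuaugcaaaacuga
miR-19b-3p: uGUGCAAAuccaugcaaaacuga
miR-92a-3p: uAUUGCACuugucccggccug

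Within the cluster miR-17-5p and miR-20a-5p share one seed and miR-19a-3p and miR-19b-3p another, so the transcript carries 4 seeds among these 6 microRNAs. F630028O10Rik had 16.2, 19.4 and 16.8 CPM in Tespa1+/+ and 8.38, 8.80 and 7.73 CPM in Tespa1-/- libraries. It was 2.11-fold lower (log2 fold change -1.07 ± 0.10, adjusted p = 8.94e-05, edgeR), whereas the summed neutrophil markers given above were higher in the same libraries. Mir17hg had 17.2, 14.3 and 15.1 CPM against 11.0, 10.2 and 10.5 CPM (log2 fold change -0.55 ± 0.09, adjusted p = 0.00181, edgeR). The groups were separate in both genes.

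With the length correction 4 of the 9 hosts were called lower: F630028O10Rik (-1.22), Mir17hg (-0.66), 4833445I07Rik (-0.67), which carries Mir191 and Mir425, and Mir142hg (-0.66), the host of the pan-hematopoietic miR-142. Before it, 4833445I07Rik stood at -0.27 (adjusted p = 0.0518) and Mir142hg at -0.09 (adjusted p = 0.376) in the edgeR test. Mir142hg has a union exon length of 269 bases, the shortest of the 134 RNAs, so its corrected value rests on the end of the length range. Dleu2, host of Mir15a and Mir16-1, varied too much to call, with 4.33 to 7.75 CPM in Tespa1+/+ and 4.27 to 8.21 CPM in Tespa1-/- libraries.

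The largest falls among the 134 RNAs were mostly kept with the length correction. Gm50230, at 13.2, 13.6 and 11.0 CPM against 4.16, 4.81 and 4.19 CPM, was 2.88-fold lower (log2 fold change -1.53, length-corrected -1.61), but its exons overlap those of Tbc1d10c and Carns1 on the same strand, and reads of these genes cannot be told apart from its own. AI504432 is a blood and immune list member whose exons overlap those of no other gene on either strand. It had 79.6, 76.4 and 72.3 CPM against 37.2, 36.3 and 34.9 CPM. This was a 2.10-fold fall (log2 fold change -1.07 ± 0.05, adjusted p = 4.44e-06, edgeR, length-corrected -0.93). The 2 groups of libraries lay far apart. Gm26532 (-1.10, corrected -1.67), whose exon overlaps Mir24-2 on the same strand, Gm43305 (-1.03, corrected -0.95), Gm7292 (-0.76, corrected -1.01) and Gm50322 (-0.75, corrected -0.78) are uncharacterised rows that fell without overlap between the groups. The 300-base promoter of Gm43305 is identical to that of Gm42031 at 294 bases. Of the 300 bases 250 lie before the start, and the transcribed sequences were not compared. Whether reads were split between these genes was therefore not tested. Gm37494 fell by 0.90 on the log2 scale, but with the correction it stood at -0.21 (adjusted p = 0.171, edgeR).

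Among the largest rises, few were kept. Gm42031 had 8.14, 6.29 and 8.28 CPM against 16.2, 14.0 and 15.1 CPM and rose 2.02-fold (log2 fold change 1.01 ± 0.13, adjusted p = 0.000379, edgeR, length-corrected 0.65), so that it rose while Gm43305, with the similar promoter, fell. AI662270 had 90.0, 81.7 and 79.6 CPM against 161, 156 and 150 CPM (log2 fold change 0.89 ± 0.06, adjusted p = 1.15e-05, edgeR, length-corrected 0.71). Both were separate between genotypes in every library. 2810408I11Rik, which starts head to head with Ccnyl1, rose by 0.87 (corrected 0.59), while Ccnyl1 itself had 0.03. Gm10076 (0.95, corrected 0.35) and Gm49207 (0.93, corrected 0.36) have union exon lengths of 384 and 279 bases, and their corrected values were below a fold of 1.5. The row named Ifi30 (0.87, corrected 0.35) bears the symbol of a protein-coding lysosomal gene although its type is processed_transcript.

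The lists of p53 and of blood RNAs did not move one way. Of 12 genes listed for p53 and DNA damage, 8 reached the floor and Tug1 was left out by its type. Of the other 7, 1 was called higher (Zfas1) and 1 lower (Neat1), and the median log2 fold change was 0.21. Each call is 14.3% of the 7, against 14.0% higher and 19.2% lower of all genes tested. Lockd, transcribed beside Cdkn1b, had 14.0, 15.8 and 15.6 CPM against 18.5, 18.1 and 18.9 CPM, separate groups but a log2 fold change of only 0.29 (adjusted p = 0.0133, edgeR), and DESeq2 gave an adjusted p of 0.0666. Its length-corrected value was 0.45. Snhg20 had 0.21 (corrected -0.01) and did not pass. Of 22 genes listed for blood and immune cells, 8 reached the floor, with a median of -0.02. Of these 0 were called higher and 2 lower (AI504432 and F630028O10Rik, 25%, against 19.2% of all genes tested). Morrbid, an RNA that restrains Bcl2l11 in short-lived myeloid cells, had 6.82, 7.62 and 8.15 CPM against 9.61, 10.3 and 11.6 CPM (log2 fold change 0.48 ± 0.11, adjusted p = 0.00781, edgeR, length-corrected 0.44). Its Tespa1-/- libraries lay above all Tespa1+/+ libraries, below the fold of 1.5. Corrected on the implied length, Morrbid stood at 1.33 (adjusted p = 9.2e-05, edgeR) and was called higher. That length is 39736 bases against 4070 bases of union exons, so its corrected value depends on the length used. AW112010, known for its induction in inflamed immune cells, had a log2 fold change of 0.05 and, length-corrected, of -0.50. With the length correction the median of the 8 was -0.58 and 4 were called lower.

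Many of these RNAs lie against a protein-coding gene. Exons of 91 of the 134 overlapped those of another gene, 52 overlapped a protein-coding gene on the opposite strand and 14 on the same strand, and 34 started within 1000 bases of a protein-coding start on the opposite strand (head to head). The kit keeps strand, but whether counting used it was not stated, so reads of overlapping genes may be shared. For the 34 head-to-head pairs, 19 moved in the same direction, and among the 12 pairs in which both genes passed the adjusted p, 6 moved together and 6 apart. Over the 34 pairs the rank correlation of log2 fold changes was 0.00, where the pairs share the same 6 libraries. With the length correction 14 of the 34 had the same sign and the rank correlation was 0.06. Of 50 tested pairs with exon overlap on opposite strands, 30 had the same sign, with a rank correlation of 0.15.

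Divergent changes were found at 2 of the snoRNA hosts. Zfas1 rose (0.60) and Znfx1, the helicase gene across from it, fell by 0.65 on the log2 scale, with 54.4 CPM in Tespa1+/+ and 34.7 CPM in Tespa1-/- LSKs (length-corrected 0.40 and -0.30). Gas5 rose (0.24) and Zbtb37 fell by 1.57 on the log2 scale, from 16.8 to 5.82 CPM (corrected 0.16 and -0.81). Other pairs that parted were 2610507I01Rik with Mrpl55 (-0.36 and 0.95, corrected -0.81 and 0.45) and Gt(ROSA)26Sor with Setd5 (0.56 and -0.91), though the latter stood at only 0.17 and -0.17 with the correction. Pairs that moved together included E130307A14Rik with Rev3l (-0.55 and -1.23, corrected -0.27 and -0.64), which encodes the catalytic subunit of a translesion polymerase, and Gm37305 with Ccnl1 (-0.49 and -0.73, corrected -0.50 and -0.55). Gm45606 overlaps Slc43a2 on the opposite strand and fell with it (-0.95 and -1.16, corrected -1.17 and -0.71), and its own values were 9.29, 8.98 and 10.1 CPM against 5.22, 4.75 and 4.59 CPM.

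**Figure D5:**
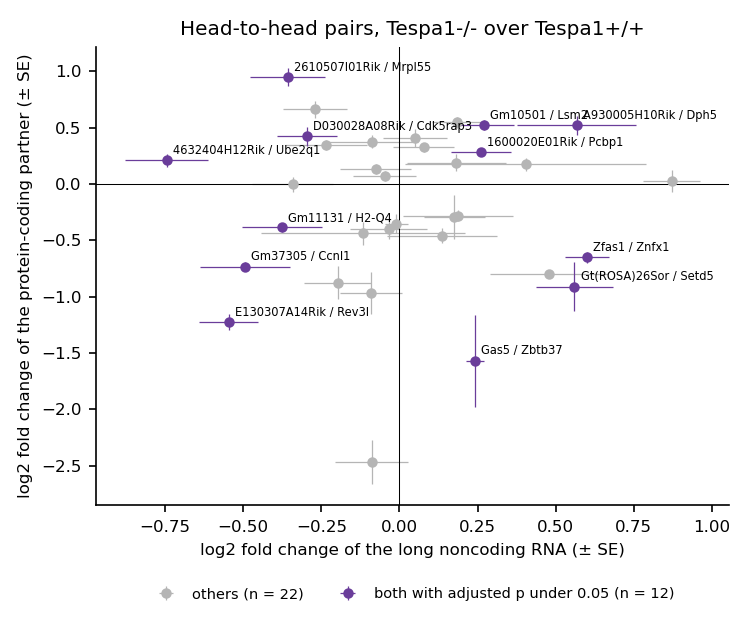
Log2 fold change (Tespa1-/- over Tespa1+/+) of 34 long noncoding RNAs against that of the protein-coding gene that starts within 1000 bases on the opposite strand, without length correction, with SE bars. Purple points are the 12 pairs in which both genes had an adjusted p under 0.05, of which 6 lie in the quadrants of equal sign and 6 in those of opposite sign.

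The spread between libraries was small for most of these RNAs but larger than for other genes of the same floor. The median coefficient of variation of CPM over 3 libraries was 7.25% in Tespa1+/+ and 6.54% in Tespa1-/-, against 4.74% and 5.14% over all genes with 50 or more counts in every library. In 7 RNAs it exceeded 25% in at least one group: BC002059, Gm21982, Gm10138, 5031425E22Rik, Dleu2, Gm20427 and Gm28037. Gm28037 shares exons with Zbtb11 and Rpl24 on the same strand, and its log2 fold change of -1.41 had an adjusted p of 0.0553 (edgeR). Gm21982 shares exons with Rbm42 and Haus5 and was called higher (0.95, adjusted p = 0.0426, edgeR) although its groups overlapped.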

How the data were processed

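Poly-A RNA of LSKs was sequenced as stranded paired-end libraries. The authors deposited raw counts and FPKM per gene in 1 table. The submitters' notes name CASAVA 1.8, HISAT2, StringTie, edgeR and the build GRCm38, and the strand setting of the counting was not given in the sources used here. The deposited FPKM equals the count scaled by the library total and by 1 length per gene. After filterByExpr, 15332 genes were scaled by TMM and compared by the quasi-likelihood F-test of edgeR 4.0.16 under R 4.3.3, on 6 libraries without covariates, and p-values were adjusted by Benjamini-Hochberg. CPM values use TMM factors. SE was derived from the F statistic. Positions, types and exon lengths came from GENCODE M21, which held all 134 RNAs, 126 with identical coordinates.

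Named were Tespa1, the 10 most abundant RNAs per length, the 10 largest called rises and falls without overlap, list members, RNAs at the floor and protein-coding partners. The other pairs and the variable RNAs were named after their values were seen. The members and lists were chosen with earlier results of these data known. Alternatives were other scalings, filters and floors, DESeq2 1.42.0, limma-trend (limma 3.58.1) on log2(FPKM + 1) or log2(FPKM + 0.1), glmTreat, a replicate block, omission of each library and length corrections (loess, span 0.5). Leaving out same-strand overlaps and using the implied length were added after the data were seen. On simulated counts, edgeR recovered 99.5% of 200 changed genes with 2 false calls among 15077 genes. With a simulated trend on union exon length it called 1757 genes outside the 200, among 15122 genes, and the length correction called 4. The trend was built on the same length that the correction uses, so this shows only that such a trend is removed. It cannot tell whether the trend in these data is technical, and in these data a rank correlation of 0.24 remained over the RNAs. Depth ranged from 12856630 to 30576981 counts. Without molecular identifiers, limits from counts (a count of 0 allows 3) cover counting error only.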

Additional observations from a re-analysis of the deposited data

How the results depend on the processing

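RLE size factors, DESeq2, no filter, an adjusted p under 0.01 and the fit without same-strand overlaps gave 11 to 13 RNAs higher and 14 to 17 lower, near the 13 and 16 reported, and the median log2 fold change was -0.033 without the overlaps. Scaling by total counts gave 8 higher and 25 lower (median -0.15), glmTreat 8 and 9, limma-trend on log2(FPKM + 1) 8 and 11 (median -0.10) and on log2(FPKM + 0.1) 8 and 18 (median -0.13), over 125 RNAs. The length correction gave 3 and 25 (median -0.20), and on the implied length 4 and 23 (median -0.22). Other selections gave 21 and 45 of 268 RNAs at 20 counts (median -0.067), 12 and 8 of 81 at 100 counts (median -0.010), 4 and 6 of the 43 without exon overlap (median -0.087), and a median of -0.065 at a mean of 5 CPM and -0.070 with 10 counts in every library. Omitting a library gave 10 to 15 higher, 14 to 18 lower, medians of -0.064 to -0.0078 and a difference in the share of counts of -0.0876 to -0.0774 percentage points, against -0.0823 with all libraries and -0.0452 without Malat1.

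Deviations of same-numbered libraries were hardly correlated (0.05, 0.01 and 0.06), so no pairing by number was used in the main fit. Whether same-numbered libraries shared a batch cannot be told from these values. With the replicate number as a block, 12 RNAs were higher and 16 lower and the median was -0.05. The call lost was that of Snhg5, which fell under the fold of 1.5 (log2 fold change 0.58). Ftx, which was not called, no longer passed the adjusted p (0.07, edgeR).

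Direction changed with the union and implied length corrections in 2410006H16Rik (-0.074 and -0.043), Kcnq1ot1 (0.13 and 0.16), AW112010 (-0.50 and -0.40) and Snhg17 (0.052 and 0.077). It changed with the union length alone in Gm47283 (-0.23), Epb41l4aos (-0.028), Snhg1 (-0.010), Snhg12 (-0.15) and Snhg20 (-0.0091), and with the implied length alone in Gm6277 (-0.0063). AI506816 turned with total counts, both limma fits and the implied length (-0.060 to -0.064), and AW112010 with total counts (-0.051), both limma fits (-0.053 and -0.058) and without Tespa1-/- replicate 2 (-0.049, of a range of -0.049 to 0.14 when 1 library was left out). Dleu2 turned without Tespa1+/+ replicate 2 (-0.026) or Tespa1-/- replicate 1 (-0.22, of a range of -0.22 to 0.44). Over the 51 named RNAs, 739 of 808 values kept direction and side of the threshold. What moved them was not tested. Counting depth limits RNAs near 50 counts, and the floor itself bound mainly in the shallowest library.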

Other observations

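Of the rows of the same gene types, 528 were under the floor in a library but tested, of which 28 were higher (5.3%) and 118 lower (22.3%) in Tespa1-/- LSKs, against 14.0% and 19.2% of all genes tested (median log2 fold change -0.20), and 8737 were not tested. A row that is low in the shallow Tespa1-/- libraries misses the floor more easily, so these counts depend on the floor. The following were named after their values were seen. Mirt1 had 14.3 ± 2.23 CPM in Tespa1+/+ and 3.94 ± 0.328 CPM in Tespa1-/- libraries (SD, n = 3 each) and changed by -1.85 on the log2 scale (length-corrected -1.48). Mir99ahg, host of a microRNA cluster that is active in stem cells and megakaryocytes, had -1.88 (corrected -1.26), and Trp53cor1, the p53-induced lincRNA-p21, had -1.65 (corrected -1.73). Crnde (1.16, corrected 0.83), Gm43813 (1.46, corrected 1.59) and Gm27252 (1.86, corrected 1.29) were higher. Several of these rest on few counts. Mir99ahg had 28 to 52 counts in Tespa1+/+ and 6 to 8 in Tespa1-/- libraries, and Gm27252 had 15 to 26 and 40 to 60. Trp53cor1 had 10 to 37 and 2 to 9 counts, with an SE of 0.49 and an adjusted p of 0.0209 (edgeR).

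Rows of related types were few at the floor. Of 28 rows typed TEC (to be experimentally tested), 4 were called higher (14.3%) and 6 lower (21.4%), against 14.0% and 19.2% of all genes tested. Of 5 sense_intronic rows 0 were called higher and 2 lower (40%). Among these 5, Peg13, an imprinted RNA from within Trappc9, had 69.1 ± 2.75 CPM in Tespa1+/+ and 20.5 ± 1.16 CPM in Tespa1-/- libraries, a 3.36-fold fall (log2 fold change -1.75 ± 0.06, length-corrected -1.70). Tug1 is typed as protein coding in the table and had a log2 fold change of -0.30, and 0.14 with the correction. Jpx, like Ftx a gene of the X-inactivation centre, had -0.88 (corrected -0.50), and Pvt1, the neighbour of Myc, had -0.13 (adjusted p = 0.532, edgeR), and 0.14 with the correction.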
